A study of Mus musculus with 8 samples.

Results

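The genes described here encode the degradative contents of the lysosome, its membrane proteins and the proton pump that acidifies it, in primary hepatic stellate cells of BALB/c mice. The group is a list of 38 gene symbols, looked up in the array's annotation, and 36 of them were measured among 22180 genes. Atp6v0c had no probe set named for it, and the probe set of Glb1 carried several gene symbols, so neither is reported. The 36 were taken by their role: 7 subunits of the proton pump, 5 membrane proteins, 9 proteases, 7 glycosidases, 7 genes of lipid turnover and cofactors, and the transcription factor Tfeb.

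The study used 8 Affymetrix arrays in 4 groups of 2. Cultured cells were kept on plastic for 10 days after isolation from healthy mice and are called activated in vitro. Cells called activated in vivo came straight from the livers of mice that had received the toxin carbon tetrachloride (CCl4) during 4 or 2 weeks, and were not plated. Quiescent cells were taken at 0 hours from healthy BALB/c livers, also without seeding. All 8 samples carry a shared protocol that names serum-containing medium and valproic acid at 2.5 mM, begun soon after cells were plated. The unseeded groups were never plated, and whether the cultured cells received the drug, a histone deacetylase inhibitor, cannot be told from the labels. Nothing in the labels tells whether both arrays of a group stem from different animals or cultures, and p-values therefore cover the spread between these arrays alone, which may be technical. No depth exists for arrays, and their number limits the precision.

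Lysosomes are acidic vesicles in which proteases, glycosidases and lipases break down material brought in by endocytosis and autophagy. Their interior is acidified by the vacuolar ATPase, a rotary pump with a cytosolic V1 sector that hydrolyses ATP and a membrane-bound V0 sector that carries protons across. Many lysosomal genes are known targets of TFEB and its relatives MITF, TFE3 and TFEC, which bind an E-box motif in their promoters. Stellate cells store retinyl esters in lipid droplets while quiescent, and become matrix-producing myofibroblasts when activated.

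Values are log2 expression levels after RMA, the authors' normalization, and a change is a difference of log2 group means ± its standard error (SE). A gene is called higher or lower where limma's adjusted p, by the Benjamini-Hochberg method over all 22180 genes, is under 0.05, with 2 arrays per group. On these arrays 35 of the 36 genes lay above a background guide of 4.75 log2 units on all 8 arrays, the exception being Tfeb. The guide is the 95th percentile of 1394 olfactory and vomeronasal receptor genes. Stellate identity was read from marker lists summed on the linear scale. The 9 measured markers of activation summed to 24899 and 24771 in culture. Their sums were 23546 and 24976 at 4 weeks and 25702 and 24643 at 2 weeks of CCl4, against 4114 and 6078 in quiescent cells. Of these 9, 7 were called higher in culture than in quiescent cells, where 12.9% of all genes were. All 9 were at 4 and 2 weeks, where 4.04% and 2.34% of all genes were. Against the average of the CCl4 groups, 2 of the 9 were higher and 4 lower in culture, beside 12.6% and 8.72% of all genes. Similar sums therefore cover markers that differ. The 14 markers of quiescence summed to 5040 and 4760 in culture, 22060 and 21707 at 4 weeks and 19423 and 20780 at 2 weeks, against 30010 and 31703 in quiescent cells. Markers of other liver cells were also present: hepatocyte and sinusoidal endothelial sums were highest in the quiescent samples, and macrophage sums were about as high at 2 weeks of CCl4 as in quiescent cells. In bulk samples, fewer cells of a type and less RNA per cell cannot be told apart.

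Promoter windows for 31 of the 38 listed genes were found in a table of RefSeq promoters of assembly GRCm38.p6, each running from 250 bases before to 50 after the start site. The E-box core CACGTG, the same on both strands, lay in the windows of 12 of these 31 genes, or 38.7%, while 8.09% of all 27025 genes with a window held it (7.15% of 32851 windows). The longer form TCACGTG, which contains that core and was searched on both strands, lay in 11 of 31 genes, or 35.5%, against 4.29% of all genes (3.77% of windows). A match is a description of the letters and says nothing of binding. The stretches below, from 150 bases before to 20 after the start, show 3 pump genes, the lysosomal membrane gene Lamp1 and the glycosidase gene Naglu, which hold the longer form, and then Man2b1 and Ctsk, which hold none. Capitals mark the longer form on either strand, and every stretch reads 5′ to 3′ along its gene.
Atp6v0b: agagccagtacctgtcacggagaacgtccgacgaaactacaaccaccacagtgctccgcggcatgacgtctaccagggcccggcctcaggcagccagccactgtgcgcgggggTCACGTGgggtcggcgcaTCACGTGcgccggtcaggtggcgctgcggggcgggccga
Atp6v0d1: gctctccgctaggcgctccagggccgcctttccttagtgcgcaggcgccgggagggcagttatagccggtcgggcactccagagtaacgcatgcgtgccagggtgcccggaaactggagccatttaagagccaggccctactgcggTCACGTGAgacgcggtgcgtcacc
Atp6v1a: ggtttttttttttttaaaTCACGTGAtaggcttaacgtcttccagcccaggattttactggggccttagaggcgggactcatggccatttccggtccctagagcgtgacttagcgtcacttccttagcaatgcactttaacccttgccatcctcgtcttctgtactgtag
Lamp1: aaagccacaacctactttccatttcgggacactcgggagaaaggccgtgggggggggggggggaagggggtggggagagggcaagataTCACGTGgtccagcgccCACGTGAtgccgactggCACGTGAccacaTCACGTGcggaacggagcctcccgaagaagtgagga
Naglu: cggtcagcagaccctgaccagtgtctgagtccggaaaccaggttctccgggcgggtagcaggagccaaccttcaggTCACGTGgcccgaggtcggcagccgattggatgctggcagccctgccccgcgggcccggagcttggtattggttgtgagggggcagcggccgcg
Man2b1: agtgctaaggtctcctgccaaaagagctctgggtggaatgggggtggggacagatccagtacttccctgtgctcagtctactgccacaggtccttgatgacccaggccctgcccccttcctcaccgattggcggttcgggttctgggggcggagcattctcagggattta
Ctsk: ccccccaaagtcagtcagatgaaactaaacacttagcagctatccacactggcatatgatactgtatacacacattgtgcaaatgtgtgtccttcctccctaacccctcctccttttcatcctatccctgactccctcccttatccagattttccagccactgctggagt
In that order the stretches lie at chr4:117887310-117887479, minus strand (Atp6v0b), chr8:105566045-105566214, minus strand (Atp6v0d1), chr16:44139240-44139409, minus strand (Atp6v1a), chr8:13159011-13159180, plus strand (Lamp1), chr11:101069944-101070113, plus strand (Naglu), chr8:85083119-85083288, plus strand (Man2b1), chr3:95499060-95499229, plus strand (Ctsk) of GRCm38.p6. Those of Atp6v1a and Man2b1 lie inside the span that RefSeq gives the gene, so the annotated gene begins upstream of them.

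Counting the start site as 0, the first base of the core lay at -36 and -18 in Atp6v0b, at -3 in Atp6v0d1 and at -131 in Atp6v1a. Lamp1 carried the most matches, 4 in all, at -61, -45, -28 and -15. Naglu had a single match at -73, and Ctsd, Ctsa, Mcoln1, Gla, Gaa and Glb1 held the other matches. Of the 29 genes with both a window and an array value, 10 held the longer form, and in culture against quiescent cells 4 of these were called higher, 1 lower and 5 were not called. Of the 19 without it, 3 were called higher, 4 lower and 12 were not called. Over all 22180 genes, 12.9% were called higher and 10.3% lower. Genes with and without the motif were therefore found among those called in either direction.

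**Figure D1:**
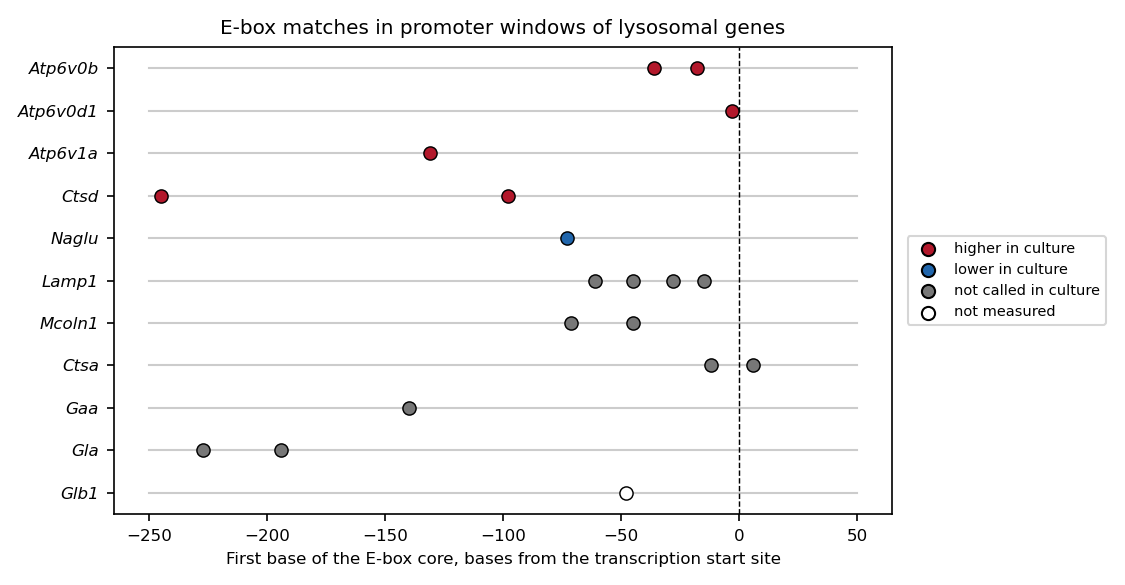
Positions of the E-box TCACGTG (either strand) in the promoter windows of the 11 lysosomal genes that hold it; the horizontal axis gives the first base of the core relative to the transcription start, and colour gives the call of the gene in culture against quiescent cells. The pump genes Atp6v0b, Atp6v0d1 and Atp6v1a are filled as higher, Naglu as lower, and Glb1 was not measured.

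Culture on plastic moved the lysosomal genes in both directions. Against quiescent cells 10 of 36 were higher and 6 lower, and 20 did not pass, where 12.9% of all genes were called higher and 10.3% lower (23.2% in either direction). Arrays of the groups did not overlap for 27 of the 36 genes, against 58.2% of all genes. The median change over the 36 was 0.05 log2 units, beside 0.01 over all genes. By role, the pump subunits took 6 of the 10 rises and none of the falls, with a median change of 0.86, while the other 29 genes gave 4 rises and 6 falls, with a median of -0.04. Some of these calls were lost without either culture array or either quiescent array, each of which leaves 1 array in its group.

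**Figure D2:**
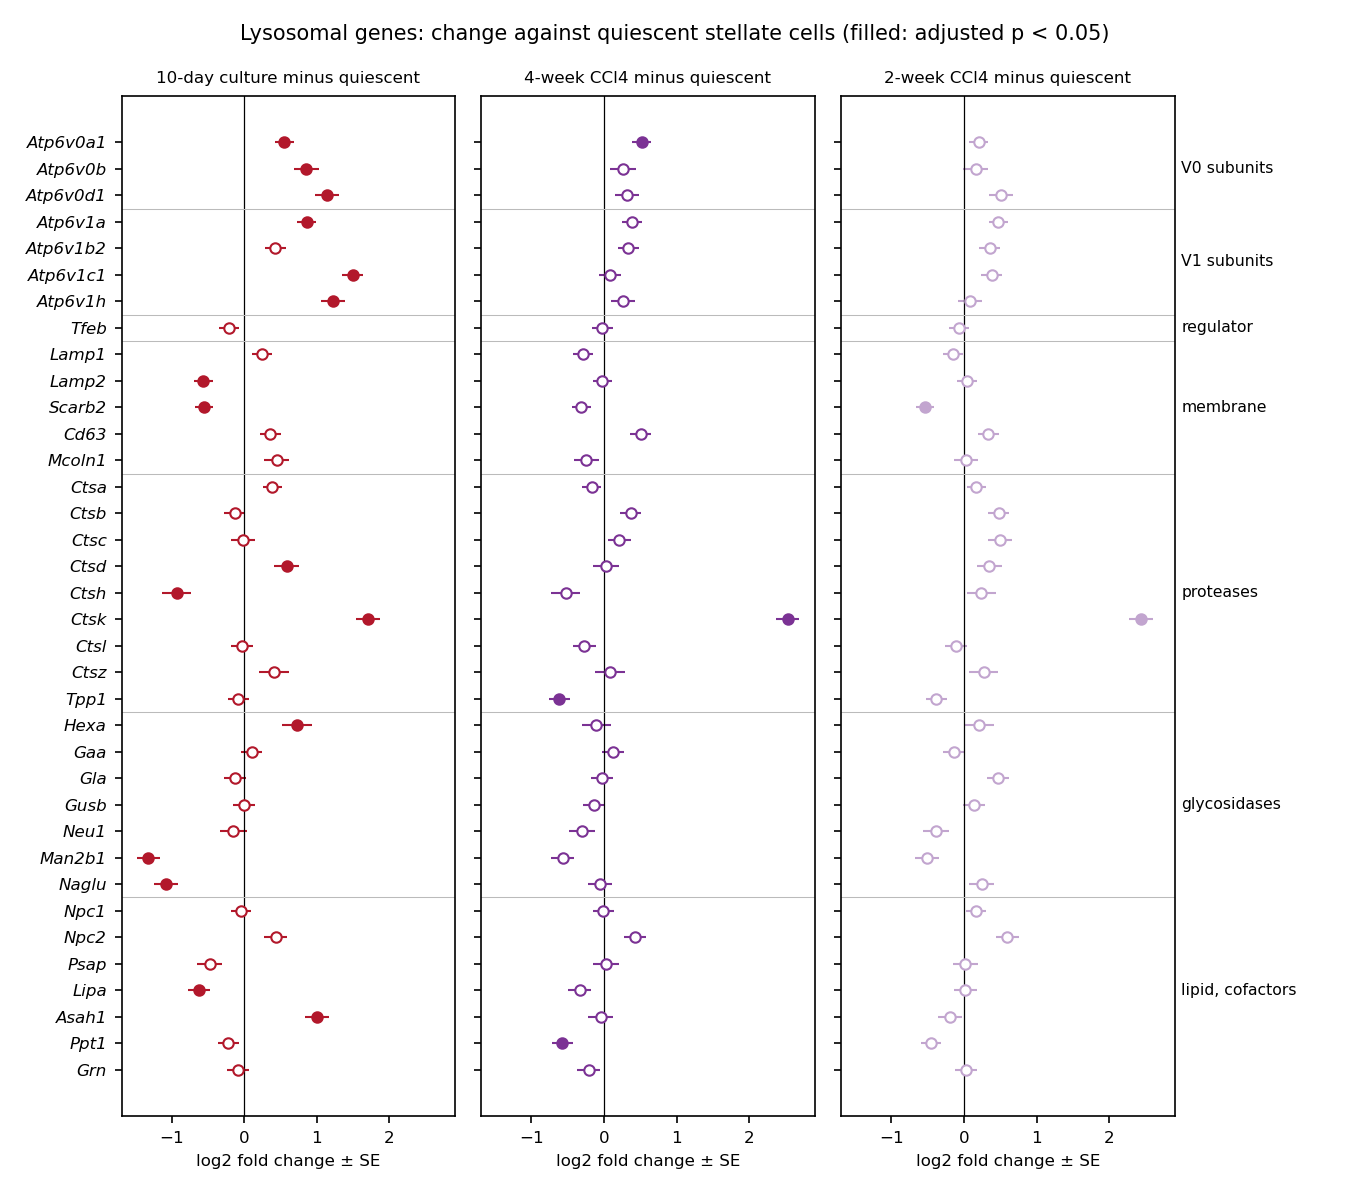
Log2 fold change ± SE of the 36 lysosomal genes (rows, grouped by role) in 10-day culture, 4-week CCl4 and 2-week CCl4, each against quiescent cells, with filled points called at an adjusted p under 0.05. In the culture panel 6 of the 7 pump subunits are filled to the right of 0, and Ctsk is filled to the right in all 3 panels.

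The largest rises among the pump subunits were those of Atp6v1c1 and Atp6v1h, both of the V1 sector. Atp6v1c1, the C subunit that ties V1 to the peripheral stalk, was at 9.52 and 9.54 in culture, 8.19 and 8.06 at 4 weeks and 8.54 and 8.30 at 2 weeks of CCl4, against 7.94 and 8.14 in quiescent cells. Both culture arrays stood above the other 6. Its change in culture was 1.49 ± 0.15, a 2.82-fold rise (limma adjusted p = 0.000134). Atp6v1h, the regulatory H subunit, read 9.24 and 9.17 in culture, 8.22 and 8.27 at 4 weeks and 8.09 and 8.05 at 2 weeks, against 7.77 and 8.20 in quiescent cells. Again the culture arrays alone were high, and the change was 1.22 ± 0.16 (adjusted p = 0.000732). Atp6v1a, the catalytic A subunit, was at 8.59 and 8.57 in culture, 8.13 and 8.07 at 4 weeks and 8.15 and 8.23 at 2 weeks, against 7.64 and 7.80 in quiescent cells. Here the CCl4 arrays lay between the culture and quiescent arrays. Its rise in culture was 0.86 ± 0.13 (adjusted p = 0.0016). Atp6v1b2, the nucleotide-binding B subunit, was the pump gene that did not pass, with a change of 0.43 ± 0.15. A second, dimmer probe set of Atp6v1b2 did pass, at 0.86 log2 units and an adjusted p of 0.00177.

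All 3 measured V0 subunits were higher in culture than in quiescent cells. Atp6v0d1, which couples the membrane ring to the central stalk, was at 8.75 and 8.98 in culture, 8.07 and 8.01 at 4 weeks and 8.19 and 8.29 at 2 weeks, against 7.91 and 7.54 in quiescent cells. The groups formed a ladder with culture on top and quiescent cells at the bottom, and the culture change was 1.14 ± 0.17 (limma adjusted p = 0.00115). Atp6v0b, a proteolipid of the ring, read 9.91 and 10.26 in culture, 9.60 and 9.37 at 4 weeks and 9.25 and 9.52 at 2 weeks, against 9.31 and 9.14 in quiescent cells. Its rise was 0.86 ± 0.18 (adjusted p = 0.00751), and the adjusted p was 0.0629 without culture replicate 2. Atp6v0a1, the membrane subunit that lines the proton path, was at 8.14 and 8.21 in culture, 8.18 and 8.10 at 4 weeks and 7.85 and 7.80 at 2 weeks, against 7.54 and 7.70 in quiescent cells. The culture and 4-week arrays overlapped, both above quiescent cells. The rise of Atp6v0a1 was 0.55 ± 0.13 (adjusted p = 0.0157), and it was not called without quiescent replicate 1 (0.0831) or either culture array (0.0567 and 0.0892). Atp6v0d1, Atp6v1a, Atp6v1c1 and Atp6v1h kept their calls in all 8 fits that each left out an array.

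The remaining subunits of the pump, a list of 15 that are not among the 36 genes, gave 5 rises and no fall in culture. These were Atp6v1e1 (0.96 ± 0.17), Atp6v1d (0.82 ± 0.13), Atp6v0e (0.65 ± 0.13), Atp6v1g1 (0.55 ± 0.14) and Atp6v0a2 (0.46 ± 0.13). Atp6v1e1, Atp6v1d and Atp6v1g1 belong to the stalks of V1, and Atp6v0e and Atp6v0a2 to V0. The calls of Atp6v1e1 and Atp6v1d held in all 8 fits without an array. Atp6v0e was not called without culture replicate 1 (0.0564), Atp6v1g1 without that array, culture replicate 2 or quiescent replicate 1 (0.108, 0.0793 and 0.102), and Atp6v0a2 in 6 of the 8 fits. Over all genes 12.9% were called higher and 10.3% lower in culture. The median change of the 15 was 0.12. Isoforms known from kidney or other specialised tissues were among the 10 that did not pass, such as Atp6v1b1 and Atp6v0a4. Both, and Atp6v1c2, lay under the background guide on all 8 arrays, as did Atp6v0d2 on the culture and quiescent arrays. Changes of these genes in culture could not be measured, although they count in the median of the 15.

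**Figure D3:**
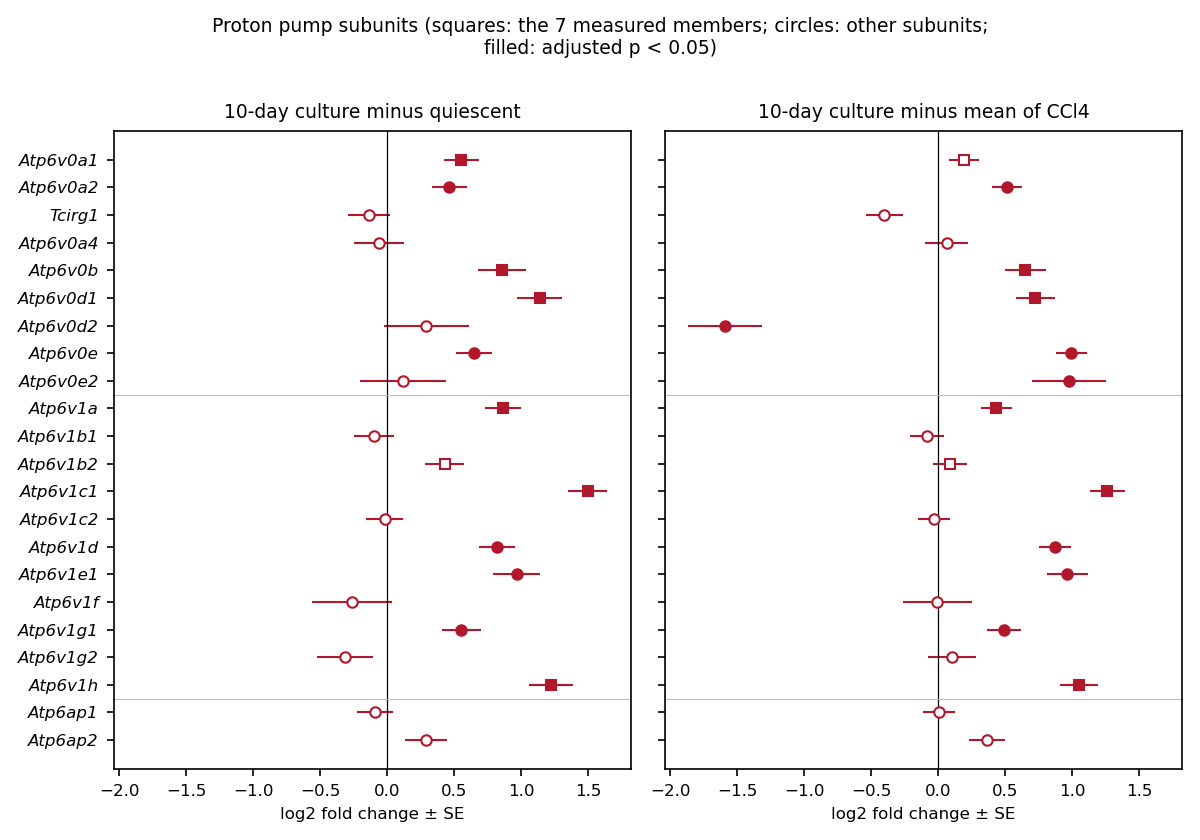
Log2 fold change ± SE of 22 pump genes (rows; V0, V1 and accessory subunits from top to bottom) in 10-day culture against quiescent cells (left) and against the average of the CCl4 groups (right), filled where called. Squares mark the 7 subunits of the gene group and circles the other 15; Atp6v1c1 and Atp6v1h lie furthest to the right among the V1 squares, and Atp6v0d2 is the single filled point left of 0.

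Among the proteases, cathepsin K stood apart. Ctsk, a cysteine protease that cleaves collagen and is best known from osteoclasts, was at 8.18 and 8.03 in culture, 9.09 and 8.75 at 4 weeks and 8.76 and 8.91 at 2 weeks, against 6.48 and 6.31 in quiescent cells. All 6 arrays of activated cells lay above both quiescent arrays. The rise was 1.71 ± 0.16 in culture (limma adjusted p = 0.000109), 2.53 ± 0.16 at 4 weeks (9.4e-05) and 2.44 ± 0.16 at 2 weeks (0.000154), or 3.27-, 5.77- and 5.43-fold. Ctsk was the 1 gene of the 36 called in all 3 comparisons with quiescent cells, and it was called in all 8 fits without an array in each of them. Ctsd, the main aspartic protease of the lysosome, was at 11.24 and 11.31 in culture, 10.83 and 10.60 at 4 weeks and 10.88 and 11.19 at 2 weeks, against 10.53 and 10.85 in quiescent cells. It rose by 0.58 ± 0.17 in culture (adjusted p = 0.04), and lost the call in 5 of the 8 fits without an array, with adjusted p-values of 0.0568 to 0.199: those without quiescent replicate 1, either culture array or either 4-week array. Ctsh, an aminopeptidase, was the protease that fell: 5.32 and 5.13 in culture, 5.61 and 5.66 at 4 weeks and 6.10 and 6.70 at 2 weeks, against 6.07 and 6.24 in quiescent cells. The 2-week arrays overlapped the quiescent ones. The change of Ctsh in culture was -0.93 ± 0.20 (adjusted p = 0.00905; 0.0666 without culture replicate 2). The other 6 proteases, among them Ctsb and Ctsl, had changes in culture with adjusted p-values above 0.05, and Ctsl was at -0.03 ± 0.15.

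The 7 glycosidases gave 1 rise and 2 falls in culture, where 12.9% and 10.3% of all genes were called higher and lower. Man2b1, the lysosomal alpha-mannosidase, was at 7.99 and 7.71 in culture, 8.69 and 8.50 at 4 weeks and 8.60 and 8.71 at 2 weeks, against 9.28 and 9.05 in quiescent cells. The culture arrays were lowest, the quiescent arrays highest and the CCl4 arrays between them, and the change in culture was -1.32 ± 0.16, 2.50-fold lower (limma adjusted p = 0.000438). Naglu, which removes N-acetylglucosamine from heparan sulfate, read 6.32 and 6.26 in culture, 7.09 and 7.52 at 4 weeks and 7.71 and 7.51 at 2 weeks, against 7.33 and 7.39 in quiescent cells. Only the culture arrays stood low, by -1.08 ± 0.17 (adjusted p = 0.00179). Hexa, the alpha chain of beta-hexosaminidase, was at 10.27 and 10.35 in culture, 9.57 and 9.37 at 4 weeks and 9.59 and 9.99 at 2 weeks, against 9.34 and 9.82 in quiescent cells. Its rise was 0.73 ± 0.20 (adjusted p = 0.0289), and it was not called without quiescent replicate 1 (0.159), culture replicate 1 (0.0921) or culture replicate 2 (0.134). Gaa, Gla, Gusb and Neu1 were not called in any comparison.

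Of the 7 genes of lipid turnover and cofactors, 1 was higher and 1 lower in culture. This is near the shares over all genes, 12.9% higher and 10.3% lower. Asah1, acid ceramidase, was at 9.24 and 9.33 in culture, 8.19 and 8.27 at 4 weeks and 8.31 and 7.87 at 2 weeks, against 8.24 and 8.32 in quiescent cells. Culture alone was high, by 1.0 ± 0.17 (limma adjusted p = 0.00251), and the call held in all 8 fits without an array. Lipa, the acid lipase that cleaves cholesteryl esters and triglycerides, was at 9.14 and 8.86 in culture, 9.35 and 9.22 at 4 weeks and 9.57 and 9.71 at 2 weeks, against 9.52 and 9.72 in quiescent cells. Its change in culture was -0.62 ± 0.16 (adjusted p = 0.0195), and it was not called without quiescent replicate 2 (0.0898) or culture replicate 2 (0.14). The cholesterol exporters Npc1 and Npc2 did not pass: Npc1 was at 6.52 and 6.62 in culture, 6.49 and 6.72 at 4 weeks and 6.82 and 6.74 at 2 weeks, against 6.58 and 6.65 in quiescent cells. The 4 groups of Npc1 overlapped except for the 2-week arrays, which were the highest.

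Of the 5 membrane proteins 0 were called higher and 2 lower in culture, beside 12.9% and 10.3% of all genes. Lamp2, a lysosomal membrane glycoprotein with a role in autophagy, was at 10.70 and 10.83 in culture, 11.26 and 11.34 at 4 weeks and 11.33 and 11.42 at 2 weeks, against 11.32 and 11.34 in quiescent cells. It was low in culture by -0.56 ± 0.13 (limma adjusted p = 0.0139; 0.0887 without culture replicate 1). Its relative Lamp1 lay the other way, at 11.73 and 11.76 in culture, 11.14 and 11.27 at 4 weeks and 11.29 and 11.41 at 2 weeks, against 11.42 and 11.57 in quiescent cells, but the change of 0.25 ± 0.14 did not pass (adjusted p = 0.265). Scarb2, the receptor that carries glucocerebrosidase to lysosomes, was at 10.79 and 10.78 in culture, 11.01 and 11.04 at 4 weeks and 10.79 and 10.81 at 2 weeks, against 11.31 and 11.36 in quiescent cells. All 6 arrays of activated cells were below the quiescent ones. The change of Scarb2 in culture was -0.55 ± 0.13 (adjusted p = 0.0121; 0.0573 and 0.0629 without culture replicates 1 and 2). Tfeb read 4.43 and 4.42 in culture, 4.55 and 4.67 at 4 weeks and 4.45 and 4.68 at 2 weeks, against 4.59 and 4.68 in quiescent cells, all under the background guide, so its level was not detectable on this probe set.

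**Figure D4:**
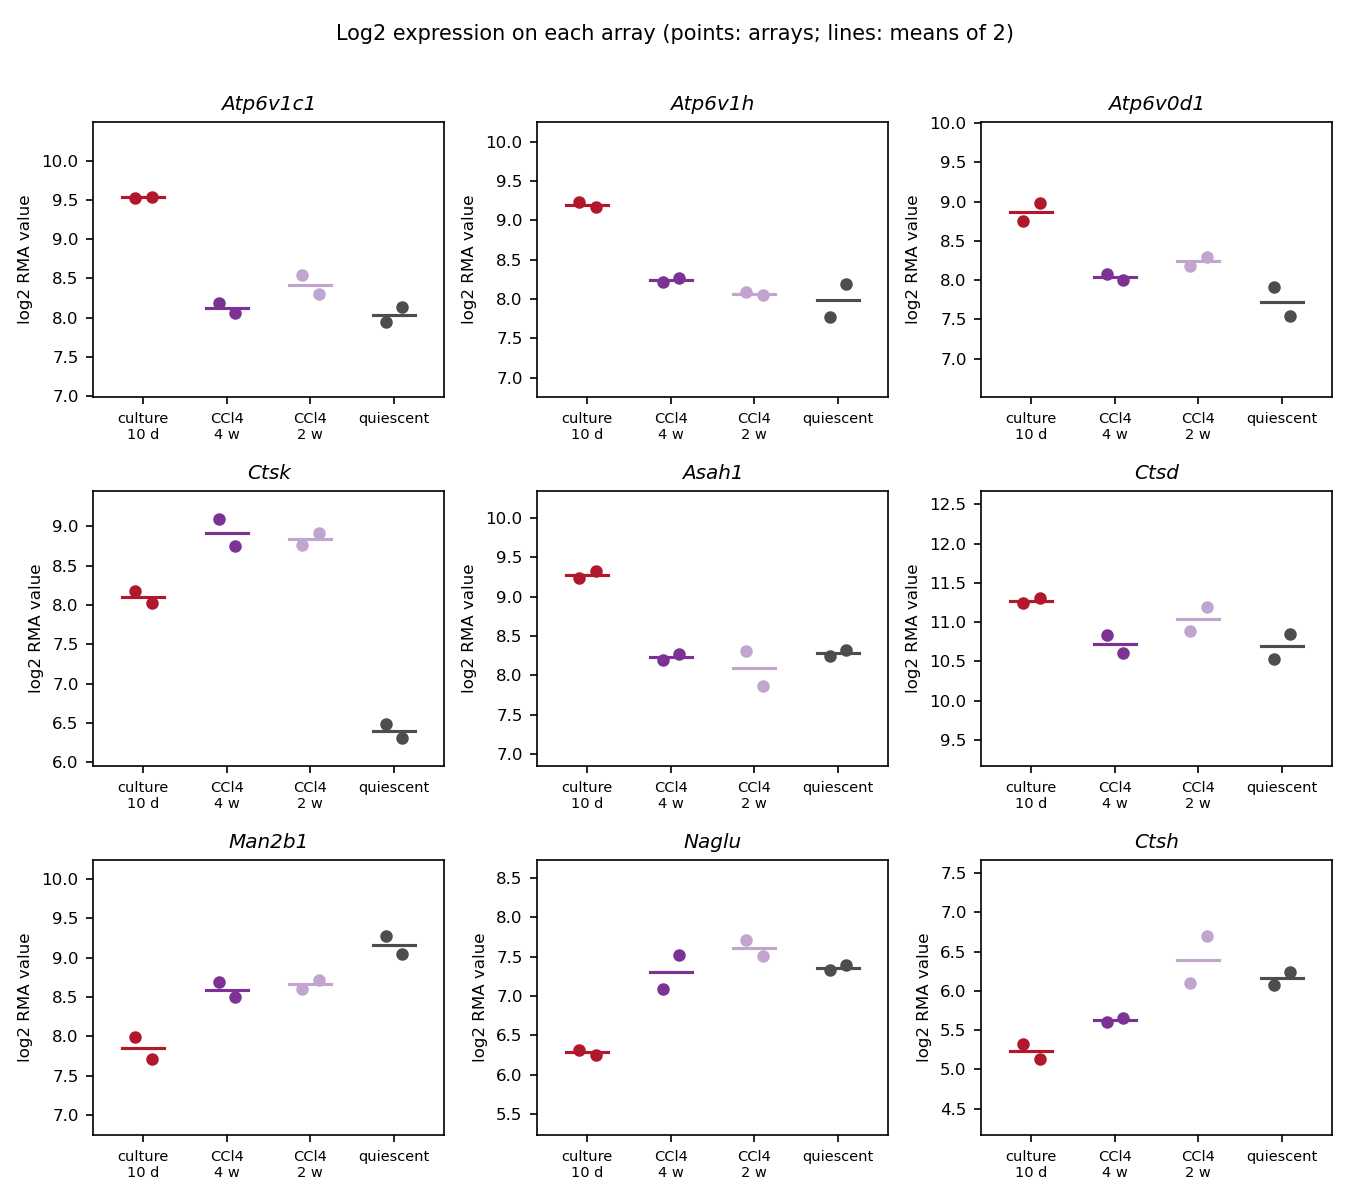
Log2 RMA values of 9 lysosomal genes on each of the 8 arrays (points), with lines at the means of 2, for culture, 4-week CCl4, 2-week CCl4 and quiescent cells from left to right; each panel has its own vertical range. Atp6v1c1, Atp6v1h and Asah1 are high in culture alone, Ctsk is low in quiescent cells alone, and Naglu is low in culture alone.

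Markers of other liver cells moved with the same comparison. In culture 14 of 20 macrophage markers were lower and 1 higher than in quiescent cells, and their sums were 2393 and 2643 in culture against 4714 and 5568 in quiescent cells. Hepatocyte markers were lower for 14 of 16, summing to 519 and 559 against 34431 and 19083, with 8 of the 16, Alb among them, at or under the background guide in culture. Sinusoidal endothelial markers were lower for 14 of 14, with sums of 2591 and 2497 in culture against 19044 and 12912 in quiescent cells. The part of these cells in the lysosomal falls and rises was not tested.

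In the injured liver lysosomal genes were called at about the shares over all genes. At 4 weeks of CCl4, 2 of 36 were higher and 2 lower than in quiescent cells, where 4.04% and 4.67% of all genes were called (8.71% in either direction), and the arrays were apart for 24 genes, against 48.7% of all genes. Besides Ctsk the calls were Atp6v0a1, at 0.52 ± 0.13 (limma adjusted p = 0.0463), Tpp1 at -0.62 ± 0.15 (0.0354) and Ppt1 at -0.57 ± 0.14 (0.0414). Tpp1, a tripeptidyl peptidase, was at 10.27 and 10.12 in culture, 9.78 and 9.54 at 4 weeks and 9.82 and 9.98 at 2 weeks, against 10.23 and 10.32 in quiescent cells. Ppt1, which strips palmitate from proteins, was at 9.90 and 9.72 in culture, 9.39 and 9.52 at 4 weeks and 9.50 and 9.65 at 2 weeks, against 9.98 and 10.08 in quiescent cells. Neither gene's 4-week arrays overlapped the quiescent ones. The call of Tpp1 held in 2 of 8 fits without an array, those without a 2-week array, and those of Ppt1 and Atp6v0a1 in 0 of 8, with adjusted p-values up to 0.22, 0.236 and 0.232. Without any one of the 8 arrays, 1 gene was called higher and 0 or 1 lower at 4 weeks. At 4 weeks 12 of 20 macrophage markers, 14 of 16 hepatocyte markers and 12 of 14 endothelial markers were lower than in quiescent cells, and the part of those cells was not tested.

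At 2 weeks of CCl4, 1 gene was higher and 1 lower, where 2.34% and 2.43% of all genes were called (4.77% in either direction), and the arrays were apart for 22 of 36 genes, against 43.5% of all genes. Ctsk was the rise. Scarb2 was the fall, at -0.54 ± 0.13 (limma adjusted p = 0.0483), and it was called in 0 of 8 fits without an array, with adjusted p-values of 0.0818 to 0.203. None of the 7 pump subunits was called at 2 weeks, with a median change of 0.36, and 1 at 4 weeks, with a median of 0.31. At the unadjusted level 4 pump subunits at 2 weeks and 3 at 4 weeks had limma p-values under 0.05. The share over all genes at that level was not computed. All 7 pump changes were positive at both times, the smallest being 0.09 at each. Pump arrays were apart for 5 of the 7 at 2 weeks and 6 at 4 weeks, against 43.5% and 48.7% of all genes. The counts of the 36 genes called by adjusted p at both times are close to the shares over all genes. At 2 weeks 9 of 14 sinusoidal endothelial and 7 of 16 hepatocyte markers were lower than in quiescent cells, and 1 of 20 macrophage markers was higher and 1 lower. Portal fibroblast and mesothelial markers were higher for 3 of 8 at 4 weeks and 4 of 8 at 2 weeks, with sums of 1319 and 1226 at 4 weeks and 1349 and 1540 at 2 weeks, against 544 and 599 in quiescent cells. Their part in the rise of Ctsk and the fall of Scarb2 was not tested.

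Between 4 and 2 weeks of CCl4 none of the 36 genes was called, where 0.0857% of all genes were (0.0271% higher and 0.0586% lower), by limma with or without its trend and robust options. At the unadjusted level 1 was higher and 3 were lower. The lowest unadjusted p was that of Ctsh, at -0.77 ± 0.20, with an adjusted p of 0.269. The arrays were apart for 21 of 36 genes, against 39% of all genes, and the median change was -0.15.

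Other lysosomal genes did differ between the CCl4 times. Ctss, a cathepsin of antigen-presenting cells, was at 8.61 and 8.76 at 4 weeks against 9.85 and 9.97 at 2 weeks, a change of -1.22 ± 0.14 (limma adjusted p = 0.0321). Cd68, a heavily glycosylated lysosomal membrane protein of macrophages, was at 8.19 and 8.33 at 4 weeks against 9.51 and 9.83 at 2 weeks, a change of -1.41 ± 0.16 (0.0332). Atp6v0d2, a V0 subunit isoform known from osteoclasts and macrophages, was at 4.31 and 3.26 at 4 weeks against 6.06 and 6.66 at 2 weeks, a change of -2.57 ± 0.32 (0.0344). At 2 weeks all 3 were also higher than in quiescent cells, by 0.81 ± 0.14, 1.02 ± 0.16 and 3.17 ± 0.32 (adjusted p = 0.0144, 0.0108 and 0.00113). The 2-week arrays were the highest of the 8 for all 3 genes, and Atp6v0d2 was under the background guide on the other 6, so the sizes of its changes depend on background and are not measured folds. The 20 macrophage markers summed to 2082 and 2474 at 4 weeks against 4914 and 5565 at 2 weeks, with 3 of 20 lower and none higher at 4 weeks, while in quiescent cells they reached 4714 and 5568. Cd5l, a Kupffer cell marker, was at or under the guide at 4 weeks, and none of the 20 was at 2 weeks. The part of macrophages in these values was not tested. Between the CCl4 times the calls held in 3 (Atp6v0d2) or 2 (Cd68 and Ctss) of 8 fits without an array. They were lost without either culture array, either 2-week array or 4-week replicate 2, and for Cd68 and Ctss also without 4-week replicate 1. Against quiescent cells at 2 weeks, Cd68 lost its call without 2-week replicate 2 (0.0648), and Ctss without quiescent replicate 1 or either 2-week array.

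**Figure D5:**
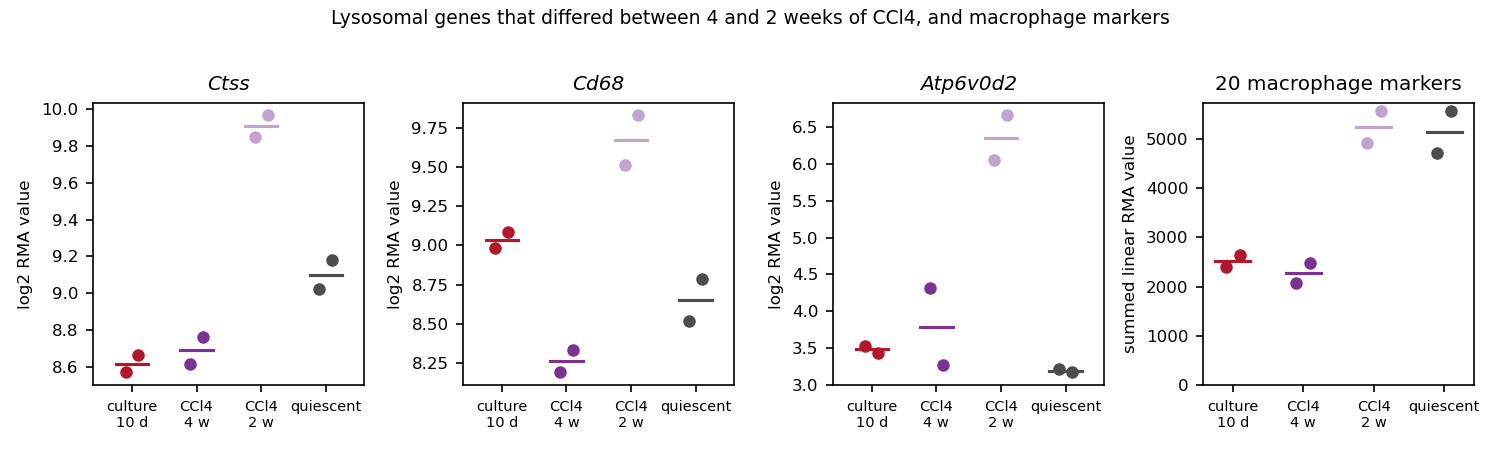
Log2 RMA values of Ctss, Cd68 and Atp6v0d2 and the linear sum of 20 macrophage markers on each array (points), with lines at the means of 2, for culture, 4-week CCl4, 2-week CCl4 and quiescent cells; the last panel starts at 0. The 3 genes are highest in the 2-week arrays, whereas the marker sum is about as high in quiescent cells.

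Culture and injury were compared with each other, taking culture against the average of the 4-week and 2-week CCl4 groups. Both comparisons of culture share the culture arrays, so their values stand side by side without a measure of likeness. Of the 36 genes 11 were higher and 8 lower in culture, where 12.6% and 8.72% of all genes were called (21.3% in either direction), and the arrays were apart for 24, against 39.9%. The median change was 0.10, beside 0.00 over all genes. Without culture replicates 1 and 2 the counts were 5 and 3 higher, and 5 and 2 lower, and without 2-week replicate 1, 4-week replicate 1 and 4-week replicate 2 they were 5, 6 and 5 higher. Of the 36 genes 13 were called both here and against quiescent cells. In this comparison 10 of 20 macrophage, 12 of 16 hepatocyte, 11 of 14 sinusoidal endothelial and 3 of 8 portal fibroblast or mesothelial markers were lower in culture, and 1 of those 8 was higher. The part of such cells in the lysosomal rises and falls was not tested.

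The pump again gave 5 rises and no fall, with a median change of 0.65. Atp6v1c1 (1.26 ± 0.13), Atp6v1h (1.05 ± 0.14), Atp6v0d1 (0.72 ± 0.14), Atp6v0b (0.65 ± 0.15) and Atp6v1a (0.43 ± 0.12) were higher in culture than after CCl4. Without culture replicate 2 the pump had 2 calls, and without 4-week replicate 2 it had 3. Asah1 was higher by 1.12 ± 0.15 and Hexa by 0.68 ± 0.17. Smaller rises were those of Mcoln1, the mucolipin calcium channel (0.55 ± 0.14), Lamp1 (0.47 ± 0.12), Tpp1 (0.42 ± 0.13) and Ctsa, the protective protein of beta-galactosidase and neuraminidase (0.38 ± 0.11). Atp6v1c1, Atp6v1h and Asah1 kept their calls in all 8 fits without an array. Atp6v0d1 lost it without culture replicate 2 (0.0776), and Atp6v0b without culture replicate 2 (0.164) or 4-week replicate 2 (0.0536). Tpp1 lost its call in all 8 fits. Atp6v1a, Ctsa and Mcoln1 lost it in the same 5, those without either culture array, 2-week replicate 1 or either 4-week array. Hexa and Lamp1 lost it without either culture array or 2-week replicate 1, and also without 4-week replicate 2 for Hexa and 4-week replicate 1 for Lamp1.

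Naglu was the lowest in culture relative to CCl4, at -1.17 ± 0.15, followed by Ctsh at -0.79 ± 0.17, Man2b1 at -0.78 ± 0.14 and Ctsk at -0.78 ± 0.14 (limma adjusted p = 0.00058, 0.0112, 0.00392 and 0.00432). Ctsk was thus above quiescent cells in culture but below the CCl4 arrays, 1.71-fold lower than their mean. Lamp2 was at -0.57 ± 0.11 and Ctsb, a cysteine protease, at -0.55 ± 0.12. Ctsb was at 10.80 and 10.59 in culture, 11.15 and 11.23 at 4 weeks and 11.21 and 11.39 at 2 weeks, against 10.84 and 10.81 in quiescent cells. Its CCl4 arrays were the highest, and the culture arrays lay just under the quiescent ones. Psap, the precursor of the saposins, and Lipa were at -0.50 ± 0.15 and -0.46 ± 0.14. The call of Naglu held in all 8 fits without an array. Without culture replicate 2, Ctsh, Man2b1, Ctsk and Ctsb had adjusted p-values of 0.105, 0.0532, 0.0522 and 0.127, and without culture replicate 1 Lamp2 had 0.0698. Lipa lost its call without any of the culture or CCl4 arrays, and Psap without any of those but 2-week replicate 1.

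Genes of the lysosome outside the 36 were also called in both directions in culture. Their counts stand beside shares over all genes of 12.9% higher and 10.3% lower in culture, 4.04% and 4.67% at 4 weeks, 2.34% and 2.43% at 2 weeks, and 12.6% and 8.72% in culture against CCl4. Of 32 other hydrolases 5 were higher and 7 lower than in quiescent cells, with a median change of -0.14. The rises were led by Aga, which cleaves asparagine-linked sugars from their peptide (1.20 ± 0.16), the carboxypeptidase Scpep1 (1.04 ± 0.15), acid sphingomyelinase Smpd1 (0.91 ± 0.19) and the sulfatase Galns (0.88 ± 0.23). The largest fall was that of cathepsin O, Ctso, at 6.36 and 6.16 in culture, 7.58 and 7.61 at 4 weeks and 7.93 and 8.18 at 2 weeks, against 9.13 and 8.70 in quiescent cells. Its change was -2.65 ± 0.18 in culture, -1.32 ± 0.18 at 4 weeks and -0.86 ± 0.18 at 2 weeks (limma adjusted p = 1.52e-05, 0.00304 and 0.0315). Acp5, the tartrate-resistant acid phosphatase (-1.54 ± 0.28), Hyal2 (-1.19 ± 0.35) and Ids, a sulfatase of heparan and dermatan sulfate (-1.04 ± 0.15), were also lower in culture. At 4 weeks none of the 32 was higher and 6 were lower, with a median of -0.34, and at 2 weeks 2 were higher and 4 lower. Ids, Sgsh and Ctso were lower than in quiescent cells in all 3 comparisons. In culture Aga, Scpep1, Ctso, Acp5 and Ids kept their calls in all 8 fits without an array. Smpd1 and Sgsh lost theirs without culture replicate 2 (0.0632 and 0.0529), Galns without either culture array or quiescent replicate 1, and Hyal2 without those or either 2-week array. At 2 weeks Ctso held in 1 of the 8 fits, Sgsh in 2 and Ids in 7, the last failing without 2-week replicate 1 (0.0669). Without 4-week replicate 1 Ids was at 0.107 at 4 weeks.

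Of 24 genes that sort enzymes to lysosomes 5 were higher in culture than in quiescent cells and none was lower. They include both receptors for mannose 6-phosphate, M6pr (0.76 ± 0.16) and Igf2r (0.70 ± 0.21), and Gnptab, which makes that tag (0.78 ± 0.18), together with Vps29 of the retromer (0.93 ± 0.16). Of 29 other membrane proteins 4 were higher and 4 lower, close to the shares over all genes. Sidt2 led the rises (1.24 ± 0.15) and the peptide and histidine transporter Slc15a3 the falls (-1.63 ± 0.18). Of 32 autophagy genes 2 were higher and 5 lower in culture, and 1 higher and 5 lower at 4 weeks. Atg12 was among the rises in culture, a call lost without culture replicate 2. Vmp1 had the largest upward change of the 32, at 1.22 in culture and 1.10 at 4 weeks. Pik3c3 and Pik3r4, subunits of the class III PI3-kinase, Map1lc3b, the LC3B protein of autophagosomes, and Wipi1 were lower than in quiescent cells in both. Against the CCl4 mean 8 of the 32 were higher in culture and none was lower, led by Atg12 (1.15 ± 0.15). In culture Vps29, Sidt2, Slc15a3, Pik3r4 and Wipi1 kept their calls in all 8 fits without an array. Igf2r lost its call in 5 of them, Gnptab in 3 (quiescent replicate 2 and both culture arrays) and M6pr in 2 (quiescent replicate 1 and culture replicate 1). Map1lc3b lost it without culture replicate 2 (0.0517) and Pik3c3 without culture replicate 1 (0.0544). At 4 weeks Wipi1 lost it without 4-week replicate 2 (0.0593), Map1lc3b without quiescent replicate 1 or either 4-week array, Pik3r4 without quiescent replicate 2 or either 4-week array, and Pik3c3 without any of those 4 arrays.

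Among the relatives of Tfeb, Tfec and Mitf moved in opposite directions. Tfec was at 7.87 and 7.73 in culture, 5.28 and 5.78 at 4 weeks and 5.80 and 5.71 at 2 weeks, against 6.50 and 6.56 in quiescent cells. Its change was 1.27 ± 0.18 in culture, -1.0 ± 0.18 at 4 weeks and -0.77 ± 0.18 at 2 weeks (limma adjusted p = 0.000931, 0.0101 and 0.0454). Mitf read 5.56 and 5.45 in culture, 7.17 and 6.87 at 4 weeks and 6.80 and 6.79 at 2 weeks, against 6.06 and 6.42 in quiescent cells. It was lower in culture (-0.73 ± 0.17, adjusted p = 0.0128) and higher at 4 weeks (0.78 ± 0.17, 0.0242), with 0.55 ± 0.17 at 2 weeks not passing (0.119). Tfe3 was not called in any comparison. Of the 22 genes of this family and of lysosomal nutrient sensing 5 were higher and 2 lower in culture: Rheb (0.85 ± 0.17), Lamtor1 (0.76 ± 0.18), Rragc (0.68 ± 0.16) and Lamtor3, which act in mTORC1 signalling at the lysosome, were higher with Tfec, and the GTPase Rragd was lower with Mitf. Rragd was lower in culture, at 4 weeks and at 2 weeks (-1.17, -1.81 and -1.64 ± 0.27). The call of Tfec held in all 8 fits without an array in culture, in 7 at 4 weeks (0.0748 without 4-week replicate 1) and in 2 at 2 weeks. Mitf lost its call in culture without quiescent replicate 2 (0.067) or culture replicate 2 (0.0788), and at 4 weeks without quiescent replicate 1 or either 4-week array. Without culture replicate 2 Rheb, Lamtor1, Rragc, Lamtor3 and Rragd had adjusted p-values of 0.0519 to 0.1 in culture. Rragd also lost its call without culture replicate 1, and Lamtor1 and Rragc without quiescent replicate 1. At 2 weeks Rragd lost it without either 2-week array.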

How the data were processed

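The files hold log2 expression values of 8 Affymetrix arrays as the authors deposited them. The submitters' processing notes name RMA and Affymetrix Expression Console, and versions are not given in the sources used here. Because RMA forces the arrays to one distribution, a shift common to most genes is invisible in these values. The labels' protocols describe RNA from a column kit that was preamplified (Pico Ovation WTA V2) and biotin-labelled. Array medians ran from 4.63 to 4.72. Of 41345 probe sets, 23521 had 1 gene symbol in the platform annotation, 1814 several and 16010 none. Symbols were checked against RefSeq, where 193 gene IDs had no row and 0 symbols changed. Each gene was read from its single-symbol probe set with the highest mean.

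Groups were compared with limma 3.58.1 in R 4.3.3 (lmFit and eBayes, no trend, not robust), two-sided, on all 8 arrays jointly, with 4 residual and 4.75 prior degrees of freedom. The procedure was tested on simulated data. P-values were adjusted by Benjamini-Hochberg over 22180 genes of each comparison and called under 0.05, with no fold threshold. The alternatives were another spread estimate, normalization, filter, probe set or choice of samples, a replicate block and leaving out each array.

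The genes and lists were chosen with earlier results of these data known. Values of every array are given for genes called (up to 6 rises and 6 falls in a comparison) and for Tfeb, Lamp1, Lamp2 and Npc1, and from each other list up to 4 rises and 4 falls are named per comparison. Genes named beyond that (among them the fifth rises, Sgsh, Lamtor3, Tfe3 and uncalled genes) were chosen after their values were seen. Promoter windows of 7 genes and levels of 2 were not analysed here.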

Additional observations from a re-analysis of the deposited data

Results flagged for a closer look

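Culture against the average of the CCl4 groups compares cells that differ in how they were activated. They also differ in plating, in markers of other liver cells and possibly in valproic acid, and these differences cannot be told apart here. In this comparison 19 of the 36 genes and 47 of the 154 genes of the other lists were called, beside 21.3% of all genes. Given here are those also called in culture against quiescent cells with both CCl4 estimates of the opposite sign and, for genes of the other lists, called at 4 or 2 weeks as well. Asah1, of the 36, is among them although its CCl4 changes of -0.05 ± 0.17 at 4 weeks and -0.19 ± 0.17 at 2 weeks were not called. In culture against the average of the 4-week and 2-week CCl4 groups, Asah1 was higher by 1.12, Tfec by 2.16, Tmem192 by 1.26 and Ostm1 by 1.14 log2 units. Tmem192 and Ostm1 encode lysosomal membrane proteins. Mitf was at -1.40 and Slc15a3 at -2.51 in the same comparison. All 6 kept their calls in each of the 8 fits that left out an array. Between 4 and 2 weeks of CCl4, Atp6v0d2 was at -2.57, Cd68 at -1.41 and Ctss at -1.22, the calls between those times among the same genes, with the macrophage marker sums given above beside them. The 4-week arrays of Atp6v0d2 were under the background guide, so its value is not a measured size.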

How the results depend on the processing

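Of the 180 changes (36 genes in 5 comparisons), none that was called in the report or under an alternative turned its sign. Uncalled changes of at most 0.24 log2 units did, for 38 of the 180, such as those of Gusb and Ctsl in culture. For culture against quiescent cells the counts of 10 higher and 6 lower ran from 7 to 14 and from 5 to 7 over the alternatives that kept all arrays of the groups compared, and from 6 to 11 and 3 to 6 without single arrays; the pump count of 6 ran from 5 to 7 and, without single arrays, from 4 to 6. At 2 weeks the single rise became 3 with the trend and robust options (Ctsb and Npc2 added) and 2 with the lowest probe set (Atp6v1b2), and was 1 without single arrays. The single fall at 2 weeks became 0 under median centring, with the lowest probe set, with only the groups compared, with the replicate block, and without any single array. At 4 weeks the 2 rises became 1 with only the groups compared and with the replicate block, and 1 without any single array, and the 2 falls became 0 under median centring, with only the groups compared and with the replicate block, and 0 to 1 without single arrays. For culture against the CCl4 mean the 11 higher ran from 3 to 10 and the 8 lower from 2 to 8 without single arrays, and the 5 pump rises from 2 to 5. With all arrays kept they ran from 8 to 12, 6 to 10 and 4 to 6. Those fits assume that a lone array varies like the other groups. The counts of 0 between the CCl4 times stayed at 0 in every alternative.

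Replicate numbers are shared between groups. Deviations of same-numbered arrays correlated between -0.04 and 0.07, so no strong shared shift was seen. Whether same-numbered samples were handled together cannot be told from the labels or from these correlations. With the replicate block, 10 genes were higher and 6 lower in culture against quiescent cells, and 9 and 6 against the CCl4 mean. After median centring the median change over all genes reached 0.10 log2 units in culture against quiescent cells, beside 0.01 before it. With 2 arrays per group, changes of small size could not be resolved, and levels near the background guide are uncertain.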
